A study of Homo sapiens with 8 samples.

Results

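The genes that carry a cell from G2 through mitosis were followed in U-2OS Tet-ON cells, a human osteosarcoma line that expresses a tetracycline-regulated transactivator, after depletion of CGGBP1 (CGG triplet repeat binding protein 1). The set holds 47 genes, named by symbol: mitotic cyclins, kinases, kinesins, and kinetochore and spindle genes, out of 18388 genes in the data. The cells received 50 nM of control siRNA (siControl) or of CGGBP1 siRNA (siCGGBP1) for 72 h. For the last 60 min they received 75 µM 4-thiouridine (4sU), with 3 libraries per group. The paper describes its CGGBP1 knockdown as made with a pool of independent siRNAs. A siControl library without 4sU and another with 200 µM 4sU, each a single library, are given for description only. All cells carry the Tet-ON transactivator, the sample titles also carry the word DMSO, and the 3 libraries of a group are not said by the labels to come from separate cultures. The study's methods give N as biological replicates without describing these cultures. The p-values measure the spread between these libraries. In SLAM-Seq, 4sU built into new RNA is alkylated and read as a T-to-C conversion, so that the same 3′ end library gives the total RNA of a gene (its reads) and its new RNA (the reads times the estimated share that is new).

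Mitotic genes are switched on late in the cell cycle. The DREAM complex, in which the MuvB core is joined to E2F4 and a pocket protein, holds them silent in resting and early cycling cells, and MuvB with MYBL2 and FOXM1 activates them in G2. MuvB contacts DNA through LIN54 at the cell cycle genes homology region (CHR), a short element near the start site that often lies downstream of CCAAT boxes bound by NF-Y. The products then act in order: cyclin B with CDK1 starts mitosis, Aurora and Polo-like kinases build the spindle, the kinetochore checkpoint waits for attachment, and the anaphase-promoting complex with CDC20 ends the phase by destroying cyclin B and securin.

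The promoter letters behind this control are shown first. RefSeq promoter windows (GRCh38.p14; 250 bases before to 50 after a start) were found for 41 members, in 51 windows, and TTK, FOXM1, TPX2, BIRC5, AURKA and UBE2C had none in the table used. Capitals mark exact matches on either strand. A CHR was searched as TTTGAA, the form in the 9 promoters shown, and a CHR with a single changed letter in the middle, TTCGAA, was counted as well. The other motifs were the CCAAT box and a tract of 3 CGG triplets, the kind of short repeat that CGGBP1 is named for. These are the 6 members with the lowest adjusted p in total RNA among those with a CHR in the window. For CENPF and NUF2, whose CHR lies after the start, a short stretch around the match is shown, and for the others the bases up to the start.
CENPF: ggctgcgggcagTTTGAAttag
MKI67: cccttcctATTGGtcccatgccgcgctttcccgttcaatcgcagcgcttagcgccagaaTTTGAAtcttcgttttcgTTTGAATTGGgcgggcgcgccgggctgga
NUF2: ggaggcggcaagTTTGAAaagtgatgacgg
BUB1B: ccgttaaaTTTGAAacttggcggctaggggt
PLK1: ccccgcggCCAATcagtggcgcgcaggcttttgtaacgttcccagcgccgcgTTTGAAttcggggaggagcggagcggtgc
PRC1: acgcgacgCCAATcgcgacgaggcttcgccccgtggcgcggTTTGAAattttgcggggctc
The stretches are, in that order, chr1:214603223-214603244 (plus strand), chr10:128126424-128126529 (minus), chr1:163321958-163321987 (plus), chr15:40161038-40161068 (plus), chr16:23678808-23678888 (plus) and chr15:90994536-90994596 (minus). Counting the base before the start as -1 and the start as 1, the CHR of PLK1 began at -29, that of PRC1 at -20, that of BUB1B at -23 and those of MKI67 at -47 and -29. The CHR of NUF2 began at 17 and that of CENPF at 41.

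Another 3 members, chosen after their sequences and values were seen, show the 3 motifs side by side. CCNB2 (cyclin B2) has the CCAAT boxes in a row before its CHR, and CKS2 (a CDK-binding subunit) and CDCA8 (borealin, of the passenger complex) hold a CGG tract as well as a CHR.
CCNB2: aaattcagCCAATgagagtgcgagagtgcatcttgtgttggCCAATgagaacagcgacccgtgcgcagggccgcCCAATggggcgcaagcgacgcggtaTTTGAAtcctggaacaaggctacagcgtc
CKS2: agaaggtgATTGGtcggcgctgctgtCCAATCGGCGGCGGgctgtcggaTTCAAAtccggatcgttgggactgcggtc
CDCA8: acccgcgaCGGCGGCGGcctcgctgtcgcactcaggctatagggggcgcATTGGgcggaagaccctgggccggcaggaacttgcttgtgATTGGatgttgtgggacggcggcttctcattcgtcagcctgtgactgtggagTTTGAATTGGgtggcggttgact
They lie at chr15:59105018-59105145, chr9:89311117-89311194 and chr1:37692352-37692515, all on the plus strand. In CKS2 the CGG tract (-47 to -39) sits directly after a CCAAT box, overlapping it by no base, and ahead of a CHR read from the opposite strand at -29. In CDCA8 the CGG tract begins at -156, far from the CHR at -23, whose last base is also the first of a CCAAT box read from the opposite strand. The same shared base is seen at the second CHR of MKI67.

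A CHR match was found in 30 of the 41 members with a window (73.2%), against 15.4% of the 7889 other tested genes in the table and 19.5% of all 27305 genes in it. For windows rather than genes, the shares were 64.7% of the members' and 16.4% of all 35116. A CCAAT box was found in 33 members (80.5%) against 43.7% of the other tested genes, and both motifs in 26 (63.4%) against 6.43%. A CHR that began within 100 bases before the start was found in 22 members (53.7%) against 4.6%. A tract of 3 CGG triplets was found in 4 members (CDCA8, CKS2, BUB1 and CDC25B, 9.76%) against 14.8% of the other tested genes and 7.46% of all genes in the table. These shares describe letters in windows around RefSeq starts, which may differ from the starts used in U-2OS cells, and a match is not a bound site.

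**Figure D1:**
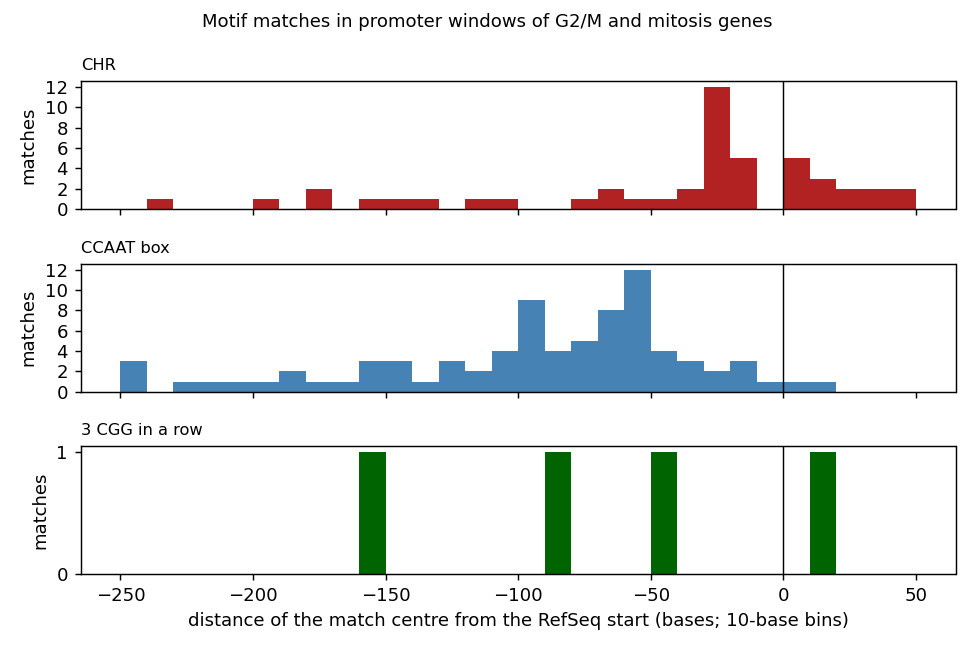
Number of motif matches (y axis) by distance of the match centre from the RefSeq start (x axis, bases, bins of 10) over the 51 promoter windows of the 41 G2/M and mitosis genes with a window. CHR matches gather just before the start, CCAAT boxes further upstream, and the 4 CGG tracts are scattered.

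The libraries were comparable in depth, with 10127519 to 14221516 reads in the 6 compared. CGGBP1 was checked first: its normalized reads (reads divided by TMM-scaled library size relative to the mean) were 1245, 1089 and 891 in siControl and 212, 117 and 362 in siCGGBP1. Every siCGGBP1 library lay below every siControl library, at a log2 fold change of -2.22 ± 0.39 (SE), with 21.5% of the siControl level left (edgeR quasi-likelihood test, adjusted p = 0.0138). Without siCGGBP1 replicate 1 the adjusted p was 0.0851, and without siControl replicate 1 it was 0.0632. The osteosarcoma label was checked against mesenchymal and bone lineage markers: 5 of 7 matched a gene in the data and all 5 were read in every library, VIM at 27161 to 38013 normalized reads. Of 6 markers of blood, epithelial and endothelial cells, CD3E, CDH1 and PECAM1 had no read in the 6 libraries, and the sum of the list was 59 to 94 normalized reads in siControl and 86 to 178 in siCGGBP1, mostly EPCAM.

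In total RNA the mitotic genes were lower after CGGBP1 depletion as a group, while few passed the test alone. All 47 members passed the filter on low reads, at 162 to 21767 reads in a library. 44 had a negative log2 fold change and 3 (ANLN, CDCA3 and CKAP5) a positive one, where 49.9% of all 10138 tested genes were lower. The median log2 fold change of the members was -0.50, which is 70.6% of the siControl level, with quartiles at -0.57 and -0.30. Over all tested genes the median was 0.00 and the quartiles were -0.36 and 0.39. In these bulk libraries, fewer cells in G2 and mitosis and less of these RNAs per cell cannot be told apart.

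Calls needed both an adjusted p under 0.05 and a log2 fold change beyond 1 in either direction. By this rule 1 member, BIRC5, was called lower, and 0.957% of all tested genes were. With the adjusted p alone, BIRC5, AURKA and CENPF passed (3 of 47), against 1.21% of tested genes called lower. DESeq2, the tool the study used, called BIRC5 and NUF2 (2.02% of tested genes called lower) and gave an adjusted p under 0.05 to 6 members (3.5% of tested genes), the other 4 being AURKA, CENPF, MKI67 and CCNB1. At an unadjusted p under 0.05, 19 members were lower and none higher, against 8.32% of tested genes lower. In 23 members every siCGGBP1 library lay below every siControl library, against 12.1% of tested genes, and no member showed the opposite order.

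**Figure D2:**
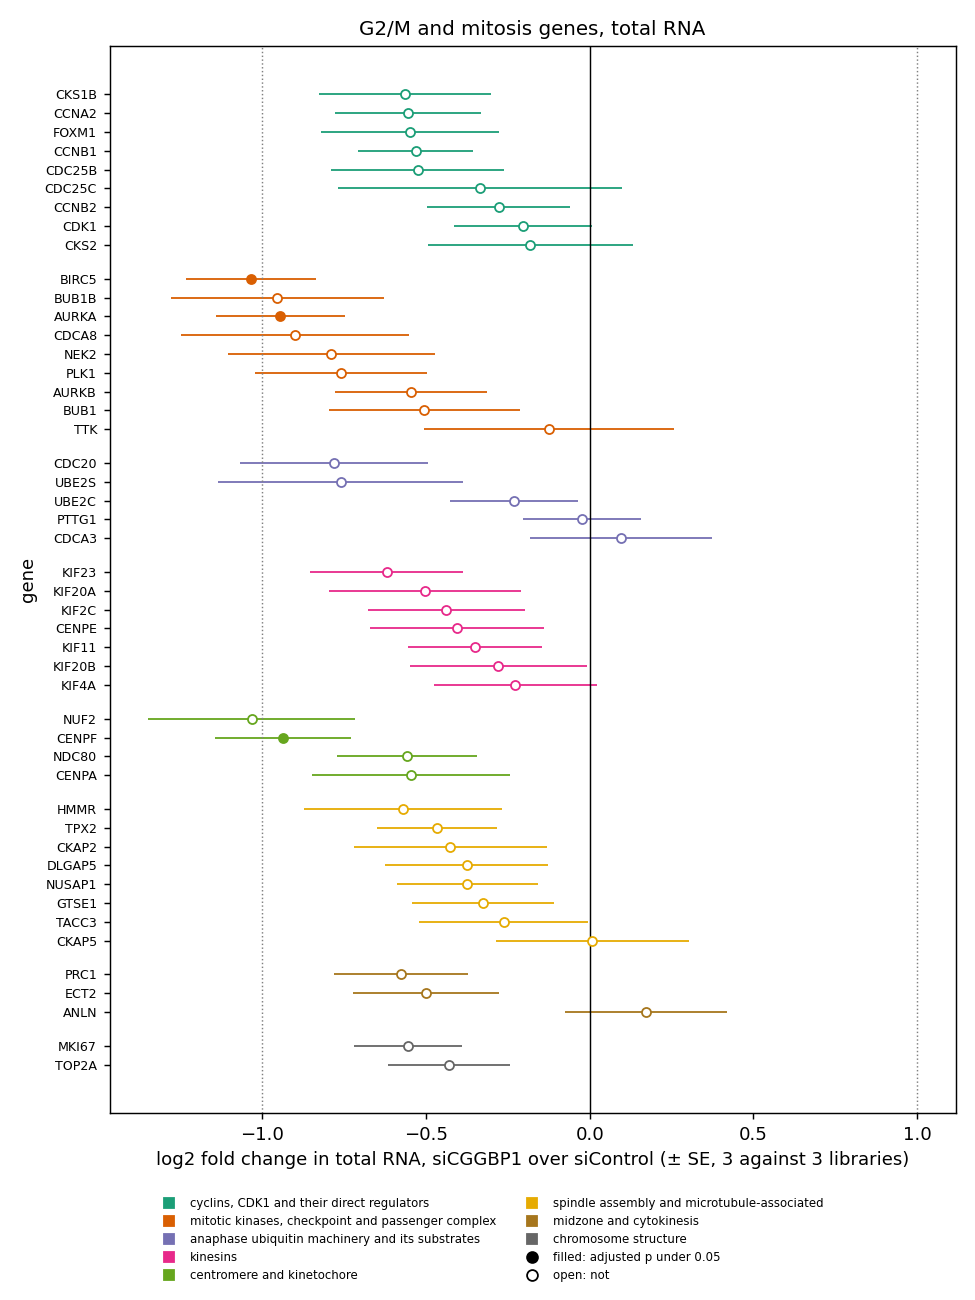
Log2 fold change in total RNA of siCGGBP1 over siControl (x axis) for each of the 47 genes (y axis, coloured by role), as the edgeR estimate ± SE from 3 against 3 libraries, with dotted lines at a log2 fold change of 1 in each direction. Filled points are BIRC5, AURKA and CENPF, whose adjusted p is under 0.05. The points of 44 genes lie left of 0.

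**Figure D3:**
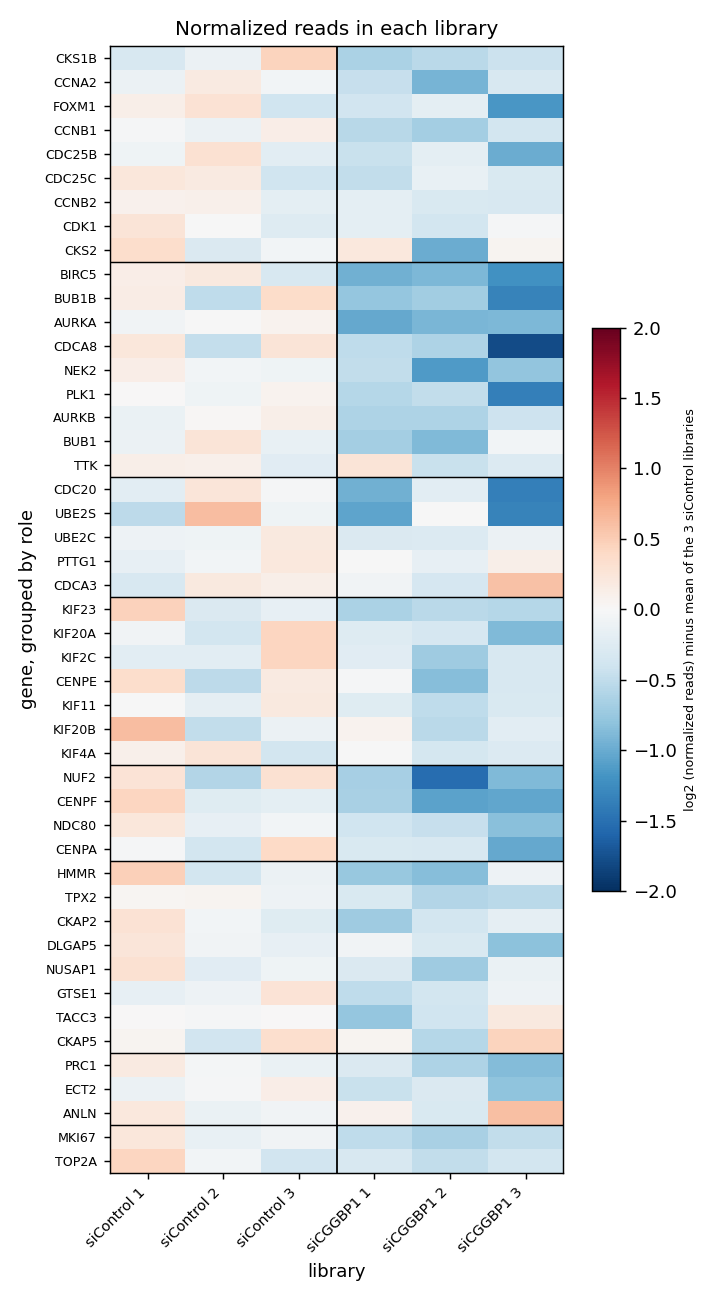
Normalized reads of each gene (rows, grouped by role) in each of the 6 libraries (columns), as log2 minus the mean of the 3 siControl libraries, with blue lower and red higher. All 3 siCGGBP1 columns are mostly blue, and replicate 3 holds some of the darkest blue cells (CDCA8, CDC20) and of the red ones (ANLN, CDCA3).

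Lower levels were seen in each depleted library. Against the mean of the siControl libraries, 42, 47 and 41 of the 47 members were lower in siCGGBP1 replicates 1, 2 and 3, with medians of -0.44, -0.50 and -0.37 on the log2 scale. The siControl libraries lay at 0.10, -0.08 and -0.06 on the same scale, so the groups did not overlap. In the depleted libraries, 32, 40 and 30 members were below all 3 siControl libraries. These counts for single libraries were not made over all tested genes. For the 3 depleted libraries together, 23 members were below all controls, against 12.1% of tested genes. The library with the most CGGBP1 left, replicate 3, had the median closest to siControl, and with 3 libraries no relation between them was tested. Together the members took 1.05% ± 0.118 (SD, n = 3) of the reads of tested genes in siControl and 0.758% ± 0.0475 in siCGGBP1, with 0.968% as the lowest siControl and 0.802% as the highest siCGGBP1 value.

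Kinases, checkpoint proteins and the chromosomal passenger complex, which correct and monitor chromosome attachment, had the lowest median of the 8 roles (-0.79). The centromere and kinetochore genes were close, at -0.75. The roles hold 2 to 9 genes each, and differences between them were not tested. All 9 were lower, 7 of them without overlap between the groups, and 2 had an adjusted p under 0.05. Over all tested genes, 12.1% were lower without overlap and 1.21% were lower at that adjusted p. BIRC5 encodes survivin, the passenger subunit that brings Aurora B to the centromere (chr17:78214186-78225636, GRCh38, GENCODE 44). Its normalized reads were 5524, 5791 and 4043 in siControl and 2592, 2726 and 2182 in siCGGBP1. The lowest control stood well above the highest depleted library, and BIRC5 fell by 1.03 ± 0.20 (SE) on the log2 scale, to 48.8% (adjusted p = 0.0213). The adjusted p stayed under 0.05 without siControl replicate 3 (0.0244). Without siCGGBP1 replicate 1, 2 or 3 it was 0.103, 0.0583 and 0.0504, and without siControl replicate 1 or 2 it was 0.0783 and 0.0846, so the call was lost in 5 of the 6 fits with a library left out.

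AURKA, the centrosomal Aurora kinase that drives spindle assembly (chr20:56369389-56392337, minus strand), had 2091, 2179 and 2297 normalized reads in siControl and 1077, 1160 and 1173 in siCGGBP1. Both groups were tight, with SDs of 103 and 52 reads. AURKA fell by 0.95 ± 0.20 on the log2 scale, to 51.9% (edgeR adjusted p = 0.0319), just short of the fold minimum. With a library left out, its adjusted p was 0.0463 without siCGGBP1 replicate 3 and between 0.0922 and 0.142 without any of the other 5. BUB1B, the BUBR1 checkpoint kinase, had 828, 522 and 958 normalized reads in siControl and 438, 458 and 295 in siCGGBP1, a log2 fold change of -0.95 ± 0.33 (adjusted p = 0.159). The groups did not overlap, but siControl replicate 2 came close to the depleted libraries. PLK1, the Polo-like kinase of mitotic entry, had 1552, 1457 and 1611 against 1036, 1099 and 594 (-0.76 ± 0.26, adjusted p = 0.168). TTK, the MPS1 checkpoint kinase, had the highest adjusted p of this role, with 349, 346 and 274 against 385, 237 and 267. Its groups overlapped, at a log2 fold change of -0.12 ± 0.38 (adjusted p = 0.914).

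Centromere and kinetochore genes, which join chromosomes to microtubules, had a median of -0.75. All 4 were lower, 3 without overlap, against 12.1% of all tested genes lower without overlap. CENPF encodes a large kinetochore protein that accumulates in G2 (chr1:214603185-214664574). Its normalized reads were 13981, 8826 and 9096 in siControl and 6648, 4961 and 5047 in siCGGBP1. siControl replicate 1 was far above its partners, yet the lowest control still exceeded the highest depleted library. CENPF fell by 0.94 ± 0.21 on the log2 scale, to 52.2% (edgeR adjusted p = 0.0433), and its adjusted p rose to between 0.0603 and 0.155 when any of the 6 libraries was left out. NUF2 and NDC80 are partners in the NDC80 complex, the microtubule-binding arm of the kinetochore. NUF2 had 1437, 790 and 1462 normalized reads in siControl and 751, 410 and 642 in siCGGBP1, a log2 fold change of -1.03 ± 0.32 (adjusted p = 0.119), and NDC80 had 2630, 2001 and 2175 against 1712, 1643 and 1266 (-0.56 ± 0.21, adjusted p = 0.210). For both, all depleted libraries were the lower ones. CENPA, the centromeric histone H3 variant, had 880, 690 and 1177 against 725, 717 and 440 (-0.55 ± 0.30, adjusted p = 0.402), with overlapping groups.

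Cyclins, CDK1 and their direct regulators had a median of -0.53, with all 9 lower and none past the adjusted p (1.21% of all tested genes). For 4 of them the groups did not overlap, against 12.1% of all tested genes lower without overlap. CCNB1 (cyclin B1) had 4824, 4525 and 5377 normalized reads in siControl and 3341, 3055 and 3786 in siCGGBP1. The groups were well apart, at -0.53 ± 0.18 (adjusted p = 0.153). CCNA2 (cyclin A2, which acts in S phase and G2) had 1847, 2264 and 1919 against 1457, 1049 and 1596, at -0.56 ± 0.22 (adjusted p = 0.238). CKS1B, a CDK-binding subunit, had 919, 1054 and 1555 against 742, 789 and 854, at -0.56 ± 0.26 (adjusted p = 0.306). Its paralog CKS2 was nearest 0 in the role, with 1581, 1011 and 1193 against 1434, 621 and 1283 and a log2 fold change of -0.18 ± 0.31 (adjusted p = 0.836). CDK1 itself had 2623, 2184 and 1840 against 1912, 1699 and 2162, at -0.20 ± 0.21 (adjusted p = 0.696), and CCNB2 had 1431, 1437 and 1178 against 1176, 1089 and 1072, at -0.28 ± 0.22 (adjusted p = 0.579). The groups overlapped for CDK1 and CKS2 and lay next to each other for CCNB2.

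The anaphase machinery had a median of -0.23 over 5 genes, 4 of them lower. CDC20, the activator of the anaphase-promoting complex, had 1695, 2314 and 1935 normalized reads in siControl and 1008, 1692 and 759 in siCGGBP1, giving -0.78 ± 0.29 (adjusted p = 0.191). siCGGBP1 replicate 2 came within a few reads of siControl replicate 1. The ubiquitin-conjugating enzymes that serve the complex were UBE2S, with 840, 1864 and 1136 against 581, 1205 and 481 (-0.76 ± 0.38, adjusted p = 0.340), and UBE2C, with 1991, 2005 and 2436 against 1753, 1767 and 1960 (-0.23 ± 0.20, adjusted p = 0.615). Among its substrates, PTTG1 (securin, the guardian of sister cohesion) had 3979, 4293 and 5183 against 4410, 3962 and 4859, at -0.02 ± 0.18 (adjusted p = 0.967). CDCA3, a mitotic entry factor, had 933, 1333 and 1262 against 1101, 920 and 1747, at 0.10 ± 0.28 (adjusted p = 0.908). In both the groups were interleaved, and the direction of CDCA3 turned when siCGGBP1 replicate 3 was left out (-0.21) or siControl replicate 1 was (-0.05).

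All 7 kinesins, the motor proteins of spindle and midzone, were lower, with a median of -0.41. None was past the adjusted p (1.21% of all tested genes), and 3 were lower without overlap (12.1% of all tested genes). KIF23, of the centralspindlin complex of cytokinesis, had 2853, 1691 and 1845 normalized reads in siControl and 1336, 1426 and 1390 in siCGGBP1, giving -0.62 ± 0.23 (adjusted p = 0.204). KIF2C, a microtubule depolymerase at centromeres, had 1887, 1887 and 2947 against 1865, 1335 and 1761, at -0.44 ± 0.24 (adjusted p = 0.393). KIF20A, a midzone motor, had 895, 727 and 1270 against 787, 745 and 509, at -0.50 ± 0.29 (adjusted p = 0.429). The depleted libraries of KIF23 lay close together below all controls, whereas KIF20A overlapped. KIF4A, a chromokinesin, had the highest adjusted p, with 1225, 1365 and 886 against 1131, 891 and 948 (-0.23 ± 0.25, adjusted p = 0.716).

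Of the 8 genes of spindle assembly, 7 were lower, with a median of -0.38. TPX2, which activates Aurora A on the spindle, had 3191, 3252 and 2915 normalized reads in siControl and 2536, 2084 and 2154 in siCGGBP1, giving -0.47 ± 0.18 (adjusted p = 0.225). It was the 1 gene of this role whose groups did not overlap, against 12.1% of all tested genes lower without overlap. HMMR had 1467, 823 and 980 against 623, 585 and 990 (-0.57 ± 0.30, adjusted p = 0.378), and NUSAP1, a microtubule bundler, had 4750, 3259 and 3618 against 3127, 2339 and 3502 (-0.37 ± 0.22, adjusted p = 0.421). CKAP5, the microtubule polymerase chTOG, had 1083, 803 and 1318 against 1092, 707 and 1421. Its groups were interleaved at 0.01 ± 0.30 (adjusted p = 0.994), and its sign turned under the DESeq2 size factors (-0.0038).

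The cytokinesis genes did not share a direction. PRC1, which bundles the midzone, had 3721, 3190 and 2990 normalized reads in siControl and 2687, 2147 and 1805 in siCGGBP1, giving -0.58 ± 0.21 (adjusted p = 0.178). ECT2, the RhoA exchange factor of the furrow, had 1540, 1656 and 1843 against 1235, 1369 and 958, at -0.50 ± 0.22 (adjusted p = 0.288). Both sets of groups were separate. ANLN (anillin, the furrow scaffold) had 2040, 1604 and 1685 against 1869, 1437 and 2695, the highest fold change of the 47 at 0.17 ± 0.25 (adjusted p = 0.796). Its highest value was siCGGBP1 replicate 3, and the log2 fold change was -0.10 without that library.

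The chromosome proteins MKI67 (Ki-67, the proliferation marker that coats mitotic chromosomes) and TOP2A (topoisomerase II alpha, which untangles sister chromatids) completed the set. MKI67 had 10235, 7942 and 8339 normalized reads in siControl and 6155, 5631 and 6258 in siCGGBP1, giving -0.56 ± 0.16 (adjusted p = 0.110), with the groups well apart. TOP2A had 25177, 18162 and 14474 against 15061, 13363 and 14491, at -0.43 ± 0.19 (adjusted p = 0.278). siControl replicate 3 was among the depleted libraries, so that the groups overlapped.

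Members with and without a CHR match did not stand apart in fold change. The median was -0.50 in the 30 members with a match and -0.50 in the 11 without, and -0.51 in the 6 with no window in the table. Only TTTGAA and TTCGAA were searched, so the 11 are not shown to lack a CHR of another form. The 4 members with a CGG tract had log2 fold changes from -0.90 (CDCA8) to -0.18 (CKS2), with a median of -0.52.

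Other genes of the same pathways, taken from lists written with earlier results of these data known, are given for comparison. Among 54 further mitosis genes, 50 were lower with a median of -0.51, and 1 was called lower, against 0.957% of all tested genes. That gene was MAD2L1, the MAD2 checkpoint protein, with 1055, 840 and 872 normalized reads in siControl and 389, 351 and 278 in siCGGBP1 (-1.44 ± 0.28, adjusted p = 0.0226). SPAG5, a spindle protein, was next, at -1.01 ± 0.27 (adjusted p = 0.0820). The 45 S phase genes gave a similar picture, with 41 of the 44 tested lower and a median of -0.50. Of these MCM5 was called, at -1.46 ± 0.31 (adjusted p = 0.0346), and MCM3, at -0.87 ± 0.20 (adjusted p = 0.0492), passed the adjusted p alone. Both are subunits of the replicative helicase. Over all tested genes, 0.957% were called lower and 1.21% were lower at the adjusted p alone.

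Genes that control entry into mitosis were lower in 8 of 11 (median -0.31) and none was called. CDC25A, a CDK-activating phosphatase, had -1.35 ± 0.37 (adjusted p = 0.0883) and CHEK1, a checkpoint kinase, had -0.95 ± 0.35 (adjusted p = 0.189). The list for the anaphase-promoting complex, which holds UBE2D1, FZR1 and FBXO5 beside the subunits, had 8 of 16 tested genes lower. Its median was -0.02, with no call. Its lowest adjusted p belonged to ANAPC16 (0.51 ± 0.19, adjusted p = 0.204) and UBE2D1 (1.01 ± 0.38, adjusted p = 0.205), both higher. ANAPC1 (-1.03 ± 0.39, adjusted p = 0.208) and CDC27 (-0.55 ± 0.22, adjusted p = 0.221) came next, both lower in all 9 pairs of libraries. The latter 2 genes were named after their values were seen.

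Of 24 tested genes of the DREAM, MuvB and E2F system, 19 were lower, with a median of -0.55. Called lower was 1 of them, against 0.957% of all tested genes. E2F4, the repressor E2F of DREAM, was called lower, with 759, 686 and 639 normalized reads in siControl and 246, 137 and 131 in siCGGBP1 (-2.02 ± 0.36, adjusted p = 0.0154). CDKN1A, the CDK inhibitor that acts upstream of DREAM, had 2202, 2363 and 2665 against 4332, 5757 and 4340. It rose by 1.00 ± 0.19 on the log2 scale, marginally under the fold minimum (adjusted p = 0.0213). For both genes the groups were far apart. Among the lineage markers, COL1A1 (1.31 ± 0.18, adjusted p = 0.00353) and SPARC (1.27 ± 0.19, adjusted p = 0.00634), bone matrix genes, were called higher, against 0.454% of tested genes called higher. The other 3 of the 5 tested lineage markers were not called. VIM stood at 0.16 ± 0.14 (adjusted p = 0.650), RUNX2 at 0.52 ± 0.54 (adjusted p = 0.702), and CD44, lower in all 9 pairs of libraries, at -0.87 ± 0.25 (adjusted p = 0.103). The part of these differences in the members' values was not tested.

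New RNA was read less precisely, and 2 libraries stood apart. A new-to-total ratio under 0.1% was estimated for 2, 2 and 14 of the 47 members in siControl replicates 1 to 3 and for 6, 8 and 25 in siCGGBP1. Over all tested genes that share was 23.7%, 22.9% and 58.1% in siControl and 32.6%, 30.3% and 60.6% in siCGGBP1, so both replicate 3 libraries held many zeros, and with them the highest ratios (25% and 59.1%). The median ratio of the members was 4.95%, 5.99% and 2.15% in siControl and 4.07%, 3.70% and 0.04% in siCGGBP1. New RNA results are therefore also given without replicate 3 of both groups, a choice made after seeing these ratios. Summed over the members, new reads made up 6.27%, 6.68% and 5.32% of their reads in siControl (6.09% ± 0.699, SD, n = 3) and 5.46%, 4.56% and 5.52% in siCGGBP1 (5.18% ± 0.538), so that the groups overlapped. Over all tested genes the share was 4.83% ± 0.42 and 4.87% ± 0.926.

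**Figure D4:**
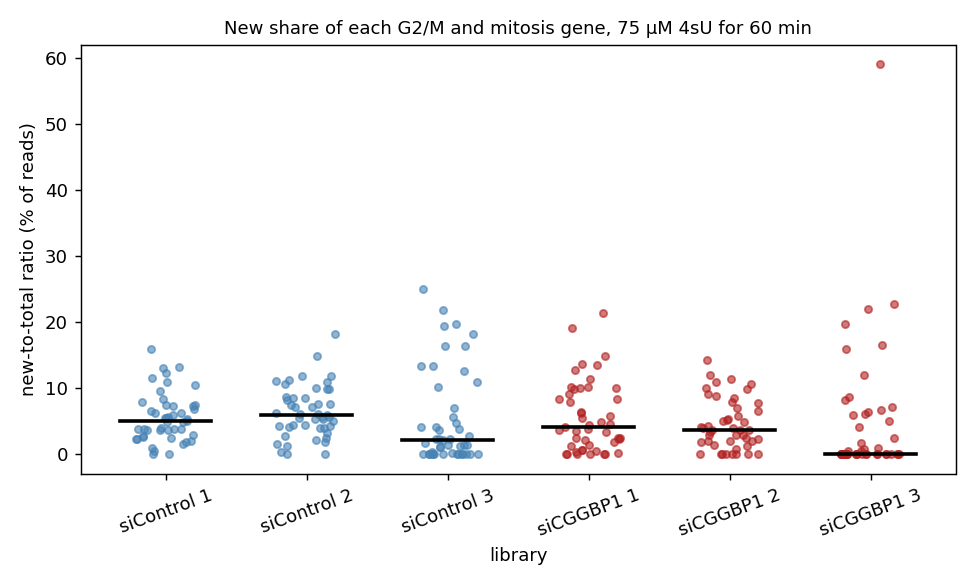
New-to-total ratio (y axis, % of reads, maximum a posteriori estimate) of each of the 47 genes in the 6 libraries (x axis), after 60 min of 75 µM 4sU, with a bar at the median and points spread sideways for visibility. Replicate 3 of both groups has more points at 0 and higher extremes, up to 59.1% for TTK in siCGGBP1.

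Summed over the members, the conversions were above the library without 4sU. There were 0.299, 0.288 and 0.214 conversions per 100 covered T in siControl and 0.277, 0.270 and 0.267 in siCGGBP1, against 0.0588 without 4sU and 0.208 with 200 µM. Gene by gene, 21 of 47 members were above their own value without 4sU in all 6 libraries. The others fell at or below it mostly in replicate 3, for 14 members in siControl and 18 in siCGGBP1, against 1 to 4 in the other libraries. BUB1B, with 0.332 per 100 T without 4sU, had 0.261, 0.312 and 0 in siControl and 0.195, 0.242 and 0.0109 in siCGGBP1, below it in all 6. Reads with at least 2 conversions numbered 14.6 to 19.8 per 1000 reads of the members in the 6 libraries and 0.351 without 4sU.

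The members differed in how much of their RNA was new after 60 min in siControl. UBE2C had ratios of 16%, 11.3% and 12.6%, KIF20B (a kinesin of cytokinesis) 13.2%, 11.8% and 16.4%, and MKI67 12.3%, 11.1% and 13.3%. At the low end, PTTG1 had 1%, 1.78% and 1.73%, and FOXM1, the mitotic transcription factor, 0%, 0.36% and 0%. In each of the 3 control libraries, the replicate with many zeros included, UBE2C, KIF20B and MKI67 lay above PTTG1 and FOXM1; KIF20B and FOXM1 were named after their values were seen. Without 4sU, UBE2C had 0.169 conversions per 100 T and KIF20B 0.168, where MKI67 had 0.0533, PTTG1 0.0113 and FOXM1 0.0157. The part of this background in their ratios was not tested. For PTTG1 the upper credible limits were 1.5%, 2.33% and 2.21%, and for MKI67 the lower ones were 11.5%, 10.2% and 12.4%, so the ranges were far apart.

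Between the groups, 40 of 47 members had less new RNA in siCGGBP1, with a median log2 fold change of -1.10, where 50.7% of all tested genes were lower and their median was -0.03. No member was called by edgeR (0.0493% of tested genes were called in either direction) or by DESeq2. At an unadjusted p under 0.05 there was 1 member by edgeR (MKI67; 3.15% of tested genes) and 0 by DESeq2 (4.32%). The typical SE was 1.90 on the log2 scale, against 0.25 in total RNA, and the lowest among the members was 0.42 (MKI67). With conversion counts in place of the estimated ratio, 41 members were lower, with a median of -0.65 (-0.03 over all tested genes), and 3 had an unadjusted p under 0.05 by edgeR, CDK1 and MKI67 lower and TTK higher (5.72% of tested genes in either direction). CDC25B, CDC25C and FOXM1 had at most 3 new reads in every siCGGBP1 library. In siControl CDC25B had 23, 0 and 0 new reads, CDC25C 10, 0 and 0, and FOXM1 0, 11 and 0. Each of these differences thus rests on 1 control library with few new reads. With these 3 genes set to the bound that 3 reads per library allow, the median was -0.94.

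**Figure D5:**
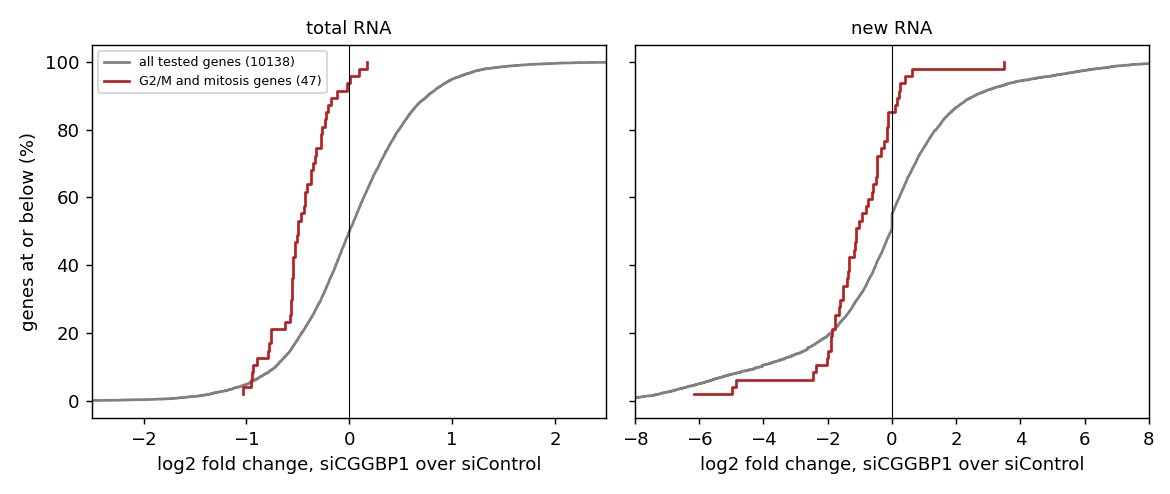
Cumulative share of genes (y axis, %) at or below each log2 fold change of siCGGBP1 over siControl (x axis), for total RNA (left) and new RNA (right), in the 47 G2/M and mitosis genes (red) and all 10138 tested genes (grey). The red curve lies left of the grey one around the median in both panels, at -0.50 against 0.00 and at -1.10 against -0.03, and the horizontal scale of new RNA is wider.

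MKI67 had the lowest p in new RNA. Its new reads were 1091, 918 and 1105 in the controls and 524, 371 and 626 after depletion. Its ratio was 9.8%, 6.53% and 8.22% in the depleted libraries, below all 3 controls. The log2 fold change was -1.13 ± 0.42 (edgeR adjusted p = 0.994). It was among 6 members whose new reads were lower in every depleted library than in every control, against 4.42% of tested genes. In conversions per 100 covered T, MKI67 had 0.47, 0.468 and 0.486 in the controls and 0.466, 0.362 and 0.378 after depletion. By this measure siCGGBP1 replicate 1 lay only just below the lowest control. NDC80 had 166, 159 and 542 new reads against 96, 151 and 0 (-1.77 ± 0.99, adjusted p = 0.994), and CDK1 had 166, 174 and 362 against 73, 99 and 0 (-1.99 ± 1.16, adjusted p = 0.994). In both the widest gap was between the replicate 3 libraries. In the other direction, TTK had 0, 22 and 0 new reads against 72, 0 and 192 (3.49 ± 2.53, adjusted p = 0.994). Its conversions were 16, 42 and 2 against 93, 10 and 783, with an adjusted p of 0.203 over all genes in the fit on conversions by edgeR. KIF23 had 139, 211 and 103 new reads against 116, 164 and 384 (0.39 ± 1.00), and CCNB2 had 34, 38 and 0 against 0, 41 and 93 (0.63 ± 2.59), so that the groups overlapped.

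Without replicate 3 of both groups, 40 members were again lower in new RNA, with a median of -0.87 (-0.12 over all tested genes), and 20 were lower in all 4 pairs of libraries, against 19% of tested genes. In that fit 1 member, TOP2A, was called (0.069% of tested genes were called lower). The new reads of TOP2A were 1197, 1143 and 197 in the control and 321, 305 and 1120 in the depleted libraries. Replicates 1 and 2 were lower after depletion and replicate 3 was higher. The log2 fold change was -1.88 ± 0.42 without replicate 3 (edgeR adjusted p = 0.0181) and -0.75 ± 0.45 with it (adjusted p = 0.994). BIRC5 had 121, 241 and 11 new reads against 13, 55 and 0, at -2.45 ± 1.82 with all libraries and -2.39 ± 0.85 without replicate 3 (adjusted p = 0.574).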

How the data were processed

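SLAM-Seq read, conversion and ratio values of 3 siControl and 3 siCGGBP1 libraries were analysed; the libraries with 0 and 200 µM 4sU were listed only. The authors removed ribosomal reads with Bowtie2, mapped with STAR to GRCh38 and ran GRAND-SLAM; the submitters' processing notes name Bowtie2 2.3.0 and STAR 2.5.3a. As deposited by the authors, expected counts (reads, T-to-C conversions, covered T) are not normalized and can be fractional where a read matches several genes, which held for 45 of the 47 members. The new-to-total ratio was deposited by the authors as a fraction with credible limits. No step removing PCR duplicates and no molecular identifiers are given. The credible limits of a ratio and the bound at 3 new reads cover counting error only. The SEs and p-values of the fits also include the spread between libraries. 30 columns (estimation parameters and empty double-hit values) were not used.

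Counts were rounded. Genes that reached 100 reads in 3 or more of the 6 libraries were fitted (10138) with edgeR 4.0.16 in R 4.3.3 (TMM, quasi-likelihood F test, Benjamini-Hochberg over all tested genes). SE is the absolute log2 fold change over the square root of F. New RNA was reads times the maximum a posteriori ratio, rounded, scaled by total reads, with missing ratios (178 tested genes) at 0. DESeq2 1.42.0 and limma 3.58.1 were alternatives. The total RNA fit alone was run on simulated counts with changes beyond the fold minimum, so new RNA and smaller changes were not covered. Tables were made in Python with pandas 2.3.3. Motifs were exact matches in RefSeq windows.

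Named members were those called, per role the 3 with the lowest and the 1 with the highest adjusted p, those with a positive fold change, the 3 with the lowest p per direction in new RNA, 2 genes per comparison list and the 6 with printed promoters; others are named as chosen later. Members and lists were chosen with earlier results of these data known.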

Additional observations from a re-analysis of the deposited data

Results flagged for a closer look

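In the single siControl library with 200 µM 4sU, which entered no comparison, the conversion rate over the members was 0.208 per 100 covered T. Without 4sU it was 0.0588. The value lay below the 0.214 to 0.299 of the 6 libraries with 75 µM. Groups of 3 libraries were not tested for outliers.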

How the results depend on the processing

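The median log2 fold change of the members in total RNA stayed negative and moved by less than the spread between libraries under all 6 other settings run, and with a library left out it ranged from -0.53 to -0.44. The median in new RNA stayed negative too, between -0.67 and -1.30 with a library left out. Members called in total RNA were 1 in the main analysis, 3 with no fold minimum, and 2 with DESeq2, with no filter or with the replicate block. With a library left out they were 0 or 1, the 1 remaining without siControl replicate 3 or without replicate 3 of both groups. Over all tested genes, 0.957% were called lower in the main analysis, 1.21% with no fold minimum and 2.02% with DESeq2. The share over all tested genes is not given for the other settings, so their counts cannot be set against it. In new RNA the 0 called members remained 0 with each single library left out and became 1 (TOP2A) without replicate 3 of both groups. In that last fit 0.069% of tested genes were called lower. Members lower in all 9 pairs were 23 with DESeq2 size factors and 21 with library totals. With the main scaling they were 23, against 12.1% of tested genes, and the share under the other scalings is not given. CGGBP1 ranged from -2.83 to -1.91 with libraries left out. The cause of these changes was not tested.

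The replicate numbers were not taken as pairs: deviations of same-numbered libraries correlated at 0.105, 0.172 and 0.0837, each library correlating best with its own number, a hint from the data and not the design. With the replicate block the median was -0.51 in total RNA and -1.53 in new RNA.

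Over 33 named members and their 429 refits, 388 kept direction and side of the adjusted p, 16 lost it (AURKA, BIRC5 and CENPF), 5 gained it and 20 turned sign, in genes near 0. CKAP5 turned to -0.0038 (DESeq2 and its size factors), -0.0118 (at least 10 reads), -0.0158 (no filter) and -0.0203 (replicate block). With libraries left out, log2 fold changes spanned -0.24 to 0.23 for CKAP5, -0.21 to 0.27 for CDCA3, -0.13 to 0.35 for ANLN, -0.41 to 0.10 for CKS2, -0.1067 to 0.0928 for PTTG1 and -0.357 to 0.0056 for TTK. In new RNA, 25 members averaged under 100 normalized new reads in siControl.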
